A study of Mus musculus with 2 samples.

Results

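The cell cycle genes examined here are 39 mouse genes, 18 of DNA replication and 21 of mitosis, taken by symbol from a list of named genes. Each of the 39 symbols matched 1 row of the gene tables, which hold 43346 rows with an Ensembl gene identifier. All 39 passed the filter for testing (a mean level of 1 TPM or more, and 50 or more counts summed over the libraries), as did 12467 genes in all. The genes were measured in technical replicate 2 and technical replicate 1, a pair of polyadenylated RNA libraries from 1 adult spleen (male C57BL/6J mouse, 10 weeks old), with no treatment and no altered allele named. Both are numbered as biological replicate 1, their RNA was extracted with the RNeasy Lipid Tissue Mini kit, and their labelled size range is 350 to 450 with no unit. Technical replicate 2 dates from 2015 and stayed out of a publication of 2014. Each side being 1 library, no replicate spread exists and no test was made, and every interval below covers counting error alone.

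A dividing cell copies its DNA in S phase and separates the copies in mitosis. Before S phase, CDC6 and CDT1 load the ring-shaped MCM helicase on replication origins, and genes of this stage are typically switched on by E2F transcription factors. Mitosis is driven by cyclin B with CDK1, by Aurora and Polo kinases and by the spindle, and ends when the anaphase-promoting complex marks cyclin B and securin for destruction; many of its genes carry CCAAT boxes and a CHR element (cell cycle genes homology region) in their promoters. In adult mouse spleen, cycling cells include red cell precursors in the red pulp and B cells in germinal centres.

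Promoter sequences come first, since both groups of genes are known for different promoter elements. The 250 bases before the start were matched in RefSeq (build GRCm38.p6) for 33 of 39 members, and 4 are printed 5′ to 3′ on the gene's strand because each holds several matches to the motifs searched, with every match in capitals. The motifs searched, on both strands, were for E2F the letters TTCCCGC as well as TTCGCGC, further those of TTGCCGC and lastly those of TTGGCGC, for the CHR those of TTTGAA and for the CCAAT box its name; matches may overlap one another. Mcm5 (chr8:75109259-75109508, + strand) had 3 E2F matches and Mcm6 (chr1:128359706-128359955, - strand) had 4, each with 2 CCAAT boxes. Ube2c (chr2:164769679-164769928, + strand) had 1 CHR and 6 CCAAT matches, and Mki67 (chr7:135716380-135716629, - strand) had 2 CHR, 3 CCAAT and 1 E2F match.
Mcm5: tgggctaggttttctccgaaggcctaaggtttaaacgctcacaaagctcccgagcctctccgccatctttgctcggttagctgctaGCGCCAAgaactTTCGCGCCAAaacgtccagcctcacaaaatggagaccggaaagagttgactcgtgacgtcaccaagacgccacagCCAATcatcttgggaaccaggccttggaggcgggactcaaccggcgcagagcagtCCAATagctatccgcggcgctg
Mcm6: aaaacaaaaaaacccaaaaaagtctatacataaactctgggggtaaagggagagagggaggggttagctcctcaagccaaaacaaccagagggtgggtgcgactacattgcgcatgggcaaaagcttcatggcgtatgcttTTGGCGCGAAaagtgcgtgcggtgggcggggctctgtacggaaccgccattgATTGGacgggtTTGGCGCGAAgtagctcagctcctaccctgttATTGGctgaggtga
Ube2c: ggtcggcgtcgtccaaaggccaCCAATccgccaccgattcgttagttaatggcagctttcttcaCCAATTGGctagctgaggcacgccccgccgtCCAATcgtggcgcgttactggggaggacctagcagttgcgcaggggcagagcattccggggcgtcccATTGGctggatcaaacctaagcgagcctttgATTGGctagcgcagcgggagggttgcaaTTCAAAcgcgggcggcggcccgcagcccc
Mki67: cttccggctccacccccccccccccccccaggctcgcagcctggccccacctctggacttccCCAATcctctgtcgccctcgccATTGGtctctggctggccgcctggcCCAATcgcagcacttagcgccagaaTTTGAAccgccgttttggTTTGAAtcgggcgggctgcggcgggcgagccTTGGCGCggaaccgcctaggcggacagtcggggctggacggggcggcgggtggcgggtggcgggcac
Of the 33 members, 4 have more than 1 listed promoter, and a gene was counted once where any of its promoters held a match. An E2F match was found for 7 of 15 replication genes (46.7%) and 3 of 18 mitosis genes (16.7%), beside 9.01% of 27025 genes counted the same way. The CHR letters were found for 2 of 15 replication genes (13.3%) and 8 of 18 mitosis genes (44.4%), beside 18.3% of all. A CCAAT box was found for 8 of 15 replication genes (53.3%) and 16 of 18 mitosis genes (88.9%), beside 37.5% of all. A match is a run of letters and does not show that a factor binds there.

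Transcript composition is shown by a second set of sequences, since the difference between the libraries ran alongside it (values below). The 150 bases around the middle of the coding sequence, from GENCODE M21 transcripts on GRCm38, are printed 5′ to 3′ for 2 members that were higher in technical replicate 2 (Cdt1 and Ube2c) and 2 that were lower (Kif11 and Cenpe), with G and C in capitals. The Cdt1 stretch lies in exons 5 and 6 of 10 (chr8:122570228-122570478, + strand) and is 60.7% G or C. The Ube2c stretch lies in exons 3 and 4 of 6 (chr2:164771356-164771979, + strand) and is 58.0% G or C. The Kif11 stretch lies in exon 13 of 22 (chr19:37404126-37404275, + strand) at 43.3%, and that of Cenpe in exons 27 and 28 of 46 (chr3:135242312-135242584, + strand) at 41.3%. Where 2 exons are named, the coordinates span the intron between them. These 4 members go with the trend in composition, and others do not. By its longest coding transcript, Birc5 was 47.4% G or C and higher, and Aurkb was 52.5% and lower. Both were counted mostly on another transcript, Birc5-201 at 51.3% and Aurkb-202 at 51.8%.
Cdt1: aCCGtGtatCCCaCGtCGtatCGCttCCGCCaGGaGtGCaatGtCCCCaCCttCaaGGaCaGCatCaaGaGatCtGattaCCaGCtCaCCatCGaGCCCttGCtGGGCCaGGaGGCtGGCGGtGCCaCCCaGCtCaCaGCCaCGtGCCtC
Ube2c: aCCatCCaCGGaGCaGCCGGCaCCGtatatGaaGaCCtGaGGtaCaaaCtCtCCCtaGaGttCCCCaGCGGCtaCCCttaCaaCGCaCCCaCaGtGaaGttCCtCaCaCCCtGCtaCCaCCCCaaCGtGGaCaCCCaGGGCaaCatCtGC
Kif11: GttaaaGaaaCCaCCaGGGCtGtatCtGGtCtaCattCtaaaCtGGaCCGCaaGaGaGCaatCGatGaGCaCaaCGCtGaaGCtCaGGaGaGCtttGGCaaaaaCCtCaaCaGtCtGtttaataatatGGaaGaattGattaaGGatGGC
Cenpe: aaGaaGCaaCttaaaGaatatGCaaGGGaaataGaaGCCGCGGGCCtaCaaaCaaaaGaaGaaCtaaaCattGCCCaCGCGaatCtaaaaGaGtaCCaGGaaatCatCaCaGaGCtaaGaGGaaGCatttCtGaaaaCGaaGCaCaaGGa

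Technical replicate 2 held 3806385 counts on genes and technical replicate 1 held 27528810, a depth ratio of 7.23. The 39 members took 4000 counts (0.105%) in technical replicate 2 and 49677 counts (0.180%) in technical replicate 1. Among marker lists for spleen cell types, all 6 B cell and all 6 red pulp macrophage markers reached 1 TPM in both libraries. So did 8886 of 12467 tested genes in technical replicate 2 and 12404 in technical replicate 1. Reaching this level therefore cannot establish the tissue. Marker levels of cell types that can hold cycling cells differed. The 8 erythroid precursor markers summed to 214247 TPM in technical replicate 2 and 36064 TPM in technical replicate 1, mostly from the globins Hba-a1 and Hbb-bs. The 5 germinal centre B cell markers summed to 6.21 TPM in technical replicate 2 and 43.2 TPM in technical replicate 1. The median tested gene was lower as well, with 2.92 TPM in technical replicate 2 and 19.65 TPM in technical replicate 1. By TPM, 6 of 8 erythroid precursor and 1 of 5 germinal centre markers were higher in technical replicate 2. The germinal centre marker S1pr2 was nearly level by TPM, with 3.18 TPM in technical replicate 2 and 3.23 TPM in technical replicate 1. Its counts were called higher in technical replicate 2 under both scalings given below, at log2 ratios of 2.42 (TMM) and 1.16 (total counts). Of the 3 germinal centre markers tested, 1 was thus higher and 2 were lower under either scaling. The part of these cell types in the results on cell cycle genes was not tested, and in bulk RNA fewer cycling cells and less of a transcript per cell cannot be told apart.

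By TPM (a level per transcript length and per library total), the cell cycle genes were lower in technical replicate 2 for 35 of 39 members and higher for 4, Birc5, Ube2c, Cdt1 and Lig1. Over all tested genes the direction was alike, with TPM lower in technical replicate 2 for 10829 of 12467 (86.9%), near the 89.7% of the members. The median member had 3.37 TPM in technical replicate 2 and 17.0 TPM in technical replicate 1, and the median tested gene had 2.92 TPM in technical replicate 2 and 19.65 TPM in technical replicate 1. At least 1 TPM was reached by 32 of 39 members in technical replicate 2 and by 39 in technical replicate 1, and at least 5 TPM by 16 in technical replicate 2 and by 37 in technical replicate 1. The order of the members also differed. In technical replicate 2 the leading members were Birc5, Ube2c and Pcna, and in technical replicate 1 they were Pcna, Mcm7 and Top2a; Spearman's rho of the members' TPM between the libraries was 0.54 across 39 genes, and genes of one library are not independent replicates.

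**Figure D1:**
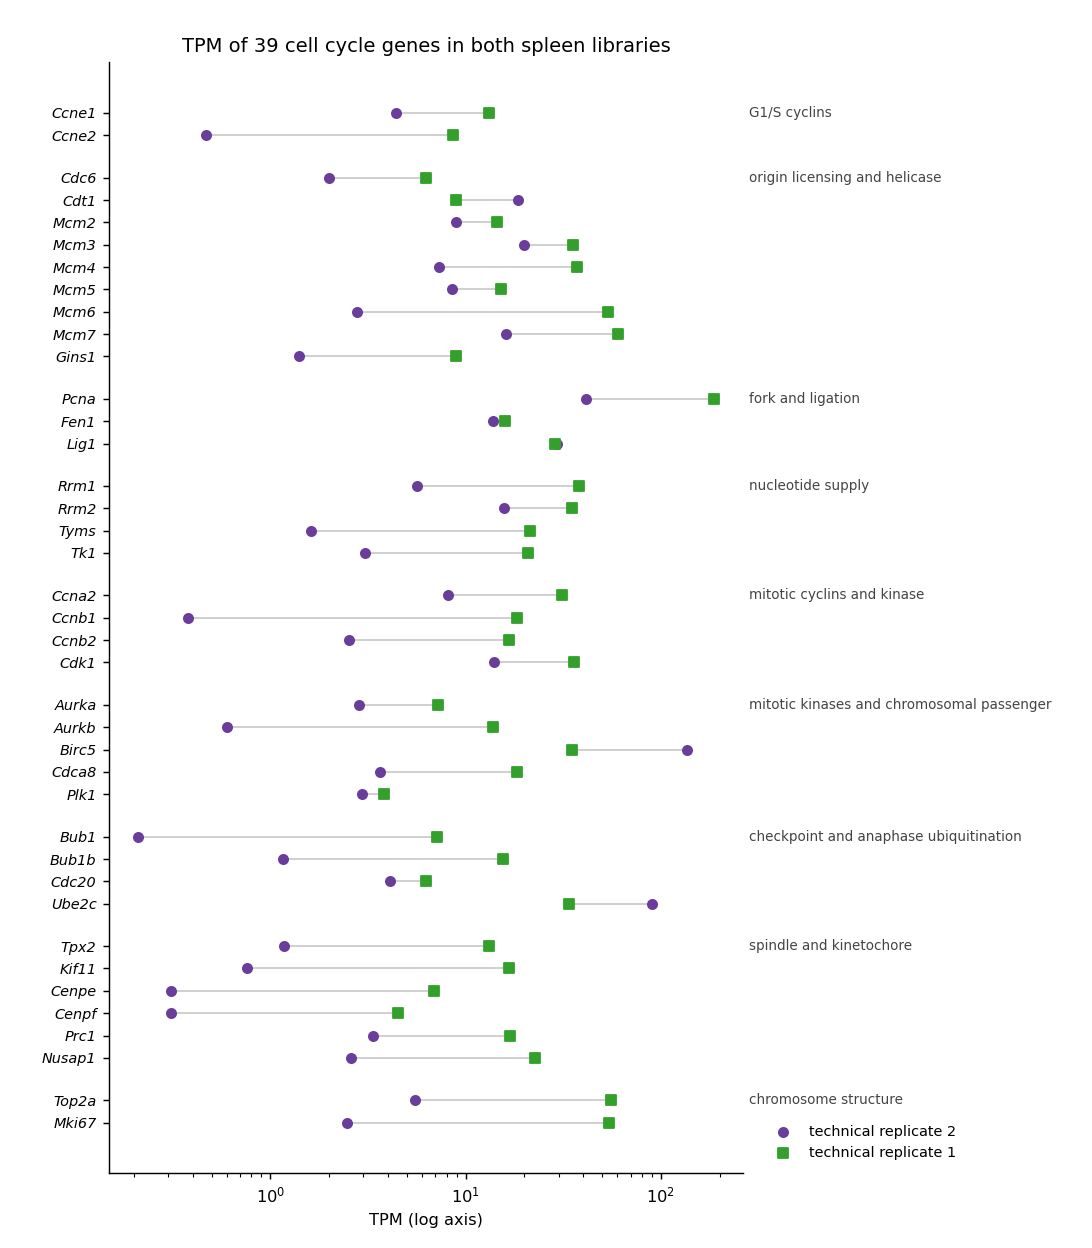
TPM on a log axis for each of the 39 members, grouped by role, in technical replicate 2 (circles) and technical replicate 1 (squares), 1 library each. Circles lie left of squares for 35 members, and Birc5 at 136.7 TPM in technical replicate 2, against 35.1 TPM in technical replicate 1, stands out on the other side.

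Set against each other by TPM, the replication genes were the smaller sum in technical replicate 2 and the larger one in technical replicate 1. The 18 replication members summed to 201.4 TPM in technical replicate 2 and 609.1 TPM in technical replicate 1. The 21 mitosis members summed to 283.8 TPM in technical replicate 2 and 434.6 TPM in technical replicate 1. The quotient of replication over mitosis was thus 0.710 in technical replicate 2 and 1.40 in technical replicate 1.

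By expected counts the quotient ran the other way. Replication members held 2061 counts and mitosis members 1939 in technical replicate 2, a quotient of 1.06 (exact binomial 95% interval 0.999 to 1.13). In technical replicate 1 they held 22327 and 27350 counts, a quotient of 0.816 (0.802 to 0.831). Counts grow with transcript length and TPM does not: Mki67, whose deposited transcript is 10075 bases long, held 10280 of the 27350 mitosis counts in technical replicate 1 but 54.3 of 434.6 TPM.

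A pair of short mitotic transcripts carried the TPM quotient. Birc5 and Ube2c together held 79.9% of the mitosis TPM in technical replicate 2 and 15.9% in technical replicate 1. Without both, a comparison chosen after the values were seen, the TPM quotient was 3.53 in technical replicate 2 and 1.67 in technical replicate 1, and the count quotient was 2.54 in technical replicate 2 and 0.852 in technical replicate 1. The other 19 mitosis members summed to 57.05 TPM in technical replicate 2 and 365.6 TPM in technical replicate 1. Pcna, the most abundant replication member by mean TPM, was 8.57% of the members' TPM in technical replicate 2 and 17.9% in technical replicate 1.

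**Figure D2:**
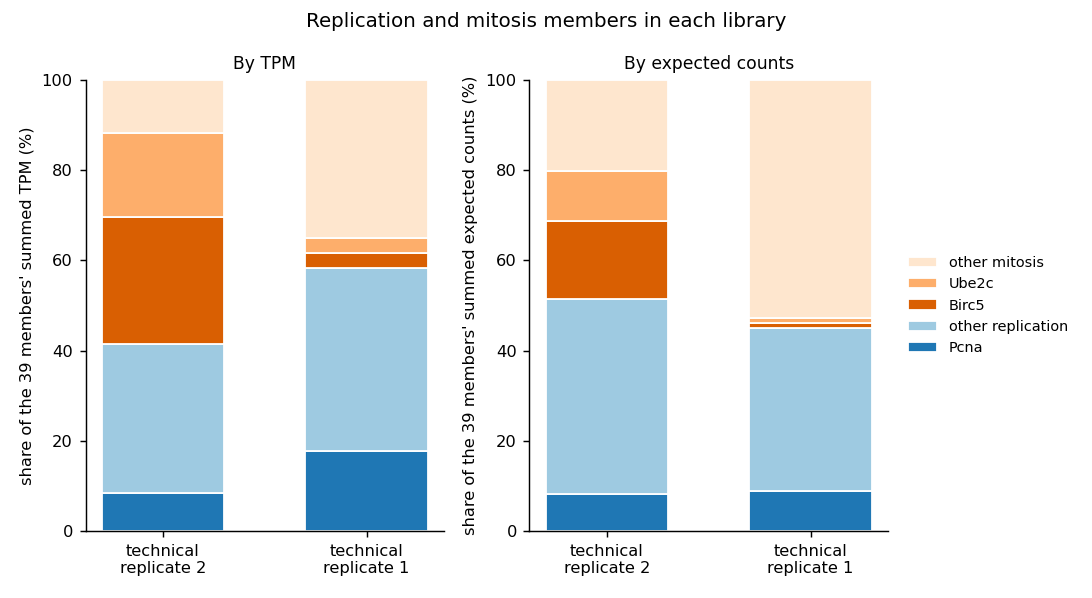
Share of the 39 members' summed TPM (left) and summed expected counts (right), in percent, held by Pcna, the other replication members, Birc5, Ube2c and the other mitosis members, with technical replicate 2 left of technical replicate 1 in each panel. Birc5 takes 28.2% of the summed TPM in technical replicate 2 and 3.36% in technical replicate 1, while the other mitosis members take 11.8% in technical replicate 2 and 35.0% in technical replicate 1.

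For ratios between the libraries, counts were scaled by TMM (edgeR), a factor that assumes that most genes do not differ and here set every log2 ratio 1.26 above that from total counts. A member was called higher or lower in technical replicate 2 when its whole 95% interval lay beyond 1.5-fold. By this rule 13 of 39 members were higher (33.3%), 9 were lower (23.1%) and 17 were neither, beside 28.0% higher and 32.6% lower over all tested genes. Called members were 22 of 39 (56.4%), near the 60.6% called over all tested genes. The split was unlike in both groups. Of 18 replication members, 7 were higher (38.9%) and 1 was lower (5.6%). Of 21 mitosis members, 6 were higher (28.6%) and 8 were lower (38.1%), near the shares over all tested genes. Median log2 ratios were 0.20 for the replication members and -0.72 for the mitosis members, beside -0.27 over all tested genes, and the ratios spread more among mitosis members (SD 2.05) than among replication members (SD 1.33).

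Most of the higher calls were made under TMM and not by total counts. By total counts 5 of 39 members were higher, namely Cdt1, Fen1, Lig1, Birc5 and Ube2c, and 20 were lower (51.3%), beside 14.6% higher, 58.5% lower and 73.1% called over all tested genes. Of the replication members 3 were then higher (16.7%) and 7 lower (38.9%), and of the mitosis members 2 (9.5%) and 13 (61.9%). A ratio given below without another word is a log2 ratio of counts under TMM.

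**Figure D3:**
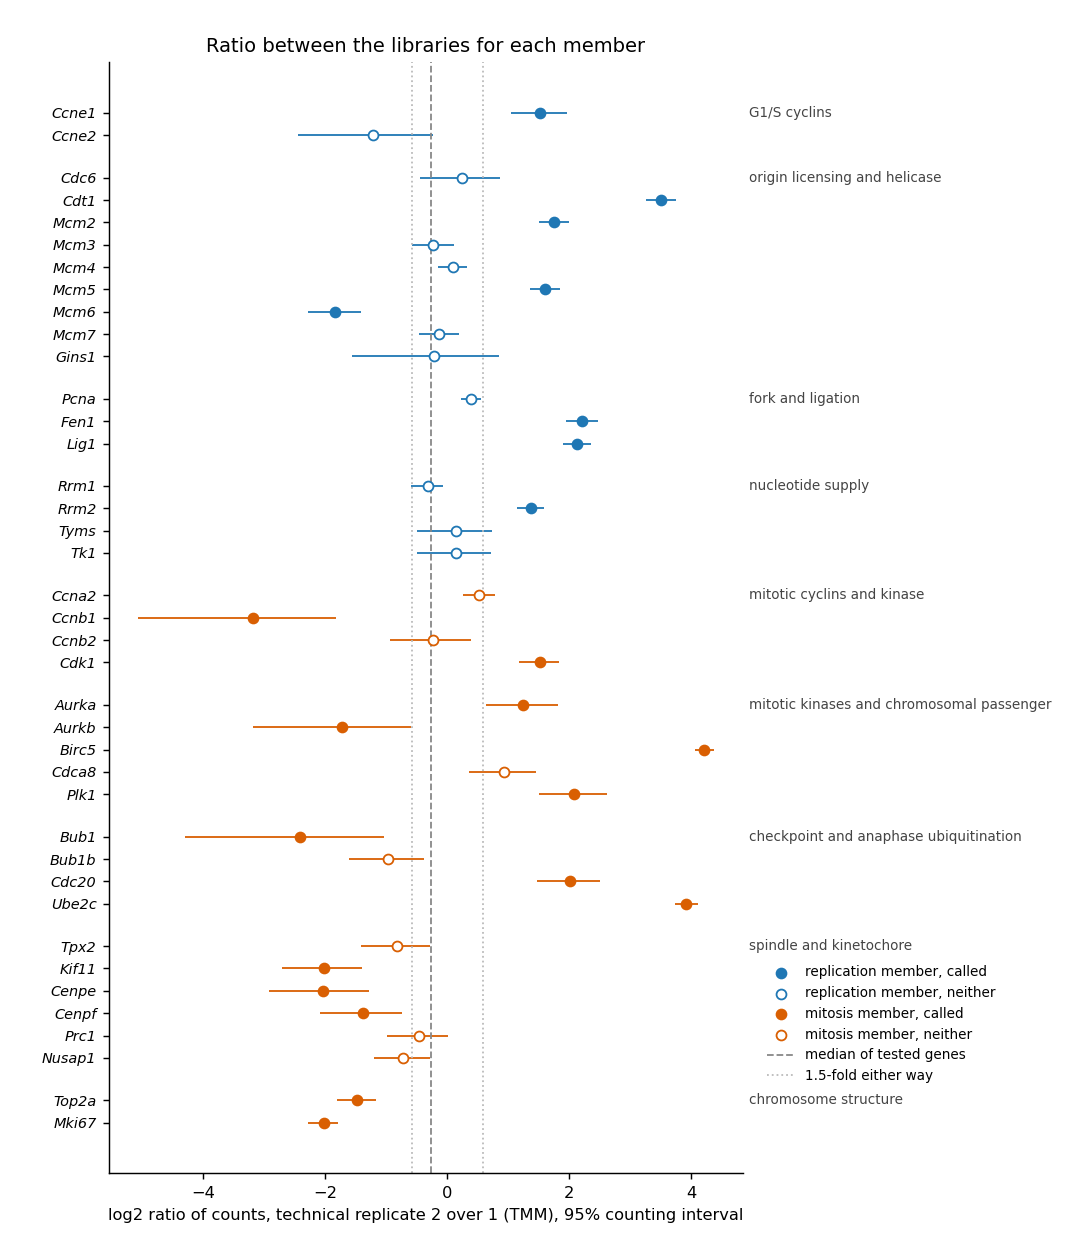
Log2 ratio of counts, technical replicate 2 over technical replicate 1, under TMM with the 95% counting interval, for each member grouped by role; filled points were called, open points were not, dotted lines mark 1.5-fold either way and the dashed line the median of the tested genes, -0.27. Spindle and kinetochore genes lie left of 0, while Cdt1, Birc5 and Ube2c lie at 3.51, 4.21 and 3.92.

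Among the genes of S phase entry and origin licensing, Cdt1 was the member with the highest ratio. Cdt1 (chr8:122568015-122573554, + strand, 10 exons) had 18.5 TPM from 223 counts in technical replicate 2 and 8.89 TPM from 340 counts in technical replicate 1. It rose by a log2 ratio of 3.51 (95% interval 3.26 to 3.76), and it was also higher by total counts, at 2.25. Ccne1, a cyclin E that with CDK2 starts S phase, had 48 counts (4.38 TPM) in technical replicate 2 and 291 counts (13.1 TPM) in technical replicate 1. Its log2 ratio of 1.52 (1.04 to 1.96) was called higher, whereas by total counts it was 0.25 and not called. The members under a mean of 5 TPM without a call, Ccne2, the second cyclin E, and the loading factor Cdc6, lay between 0.47 and 2.01 TPM in technical replicate 2 and between 6.30 and 8.64 TPM in technical replicate 1.

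The 6 subunits of the MCM helicase, which form a ring with 1 copy of each, did not keep 1 ratio. Mcm2 had 170 counts (8.95 TPM) in technical replicate 2 and 877 counts (14.4 TPM) in technical replicate 1, a rise of 1.75 (1.504 to 1.988). Mcm5 had 164 counts (8.50 TPM) in technical replicate 2 and 938 counts (15.2 TPM) in technical replicate 1, a rise of 1.60 (1.35 to 1.84). Both intervals lie wholly above those of the other 4 subunits. Mcm6 (chr1:128331590-128359664, - strand, 16 exons) fell by 1.84, to 47 counts (2.78 TPM) in technical replicate 2, against 2912 counts (53.5 TPM) in technical replicate 1. Its interval reached from -2.28 to -1.42, and it was the replication member called lower under TMM. The other 3 subunits were not called under TMM, and by total counts they were lower, at -1.17 for Mcm4, -1.49 for Mcm3 and -1.39 for Mcm7. Mcm4 had 149 counts (7.35 TPM) in technical replicate 2 and 2428 counts (37.3 TPM) in technical replicate 1, at 0.09 (-0.16 to 0.33). Mcm3 had 75 counts (19.97 TPM) in technical replicate 2 and 1526 counts (35.34 TPM) in technical replicate 1, at -0.23 (-0.58 to 0.10). Mcm7 had 82 counts (16.2 TPM) in technical replicate 2 and 1559 counts (60.4 TPM) in technical replicate 1, at -0.13 (-0.47 to 0.19). Gins1, a subunit of the GINS complex that travels with the helicase, had 7 counts (1.40 TPM) in technical replicate 2 and 142 counts (8.98 TPM) in technical replicate 1, with a wide interval of -1.57 to 0.85 and no call.

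Enzymes of the replication fork were split between a clamp without a call and a pair of higher genes. Pcna (chr2:132249162-132253314, - strand, 6 exons), the sliding clamp of DNA polymerases, had 332 counts (41.6 TPM) in technical replicate 2 and 4398 counts (186.9 TPM) in technical replicate 1, at a log2 ratio of 0.39 (0.22 to 0.55). Fen1, which cuts the flaps of Okazaki fragments, had 159 counts (13.8 TPM) in technical replicate 2 and 594 counts (16.0 TPM) in technical replicate 1. Lig1, the ligase that seals them, had 206 counts (29.5 TPM) in technical replicate 2 and 818 counts (28.6 TPM) in technical replicate 1. Both rose, Fen1 by 2.22 (1.95 to 2.47) and Lig1 by 2.13 (1.90 to 2.35), and both were higher by total counts as well. By total counts Pcna was called lower, at -0.87. On protein-coding transcripts, however, Lig1 had 0 counts in technical replicate 2 and 269.9 counts in technical replicate 1.

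Genes that supply deoxynucleotides included 1 call. Rrm2, the small subunit of ribonucleotide reductase, had 190 counts (15.7 TPM) in technical replicate 2 and 1277 counts (35.1 TPM) in technical replicate 1, a rise of 1.37 (1.14 to 1.59) that was 0.11 and not called by total counts. Rrm1, the large subunit of the same enzyme, had 128 counts (5.64 TPM) in technical replicate 2 and 2780 counts (38.2 TPM) in technical replicate 1, at -0.32 (-0.59 to -0.07). The interval of Rrm2 lies wholly above that of Rrm1. The thymidylate synthase Tyms had 25 counts (1.62 TPM) in technical replicate 2 and 391 counts (21.5 TPM) in technical replicate 1, and the thymidine kinase Tk1 had 26 counts (3.04 TPM) in technical replicate 2 and 410 counts (20.9 TPM) in technical replicate 1. Their ratios, 0.15 and 0.14, were not called.

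The mitotic kinase and cyclin B1 were called in opposite directions under TMM, and the other 2 cyclins were not called. Cdk1, the mitotic kinase, had 93 counts (14.0 TPM) in technical replicate 2 and 565 counts (36.0 TPM) in technical replicate 1, a rise of 1.51 (1.18 to 1.83) that was 0.25 and not called by total counts. Its partner Ccnb1 (chr13:100778650-100786570, - strand, 9 exons), cyclin B1, fell by 3.19, to 4 counts (0.38 TPM) in technical replicate 2, against 635 counts (18.3 TPM) in technical replicate 1. With 4 counts its interval reached from -5.07 to -1.83, and its ratio was the lowest of the 39. Ccnb2, cyclin B2, had 21 counts (2.54 TPM) in technical replicate 2 and 429 counts (16.6 TPM) in technical replicate 1, at -0.24 without a call. Ccna2, cyclin A2, which acts in both S phase and mitosis, had 133 counts (8.13 TPM) in technical replicate 2 and 1602 counts (31.1 TPM) in technical replicate 1, at 0.53 (0.26 to 0.78) without a call.

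Mitotic kinases and the chromosomal passenger complex, which corrects wrong spindle attachments, held genes called higher beside a gene called lower. Birc5 (chr11:117849251-117855743, + strand), which encodes survivin, a subunit of that complex, had 687 counts (136.7 TPM) in technical replicate 2 and 643 counts (35.1 TPM) in technical replicate 1. It rose by 4.21 (4.06 to 4.37), and by 2.95 under total counts, the highest ratio of the 39 on both scales. Aurkb, the kinase of the same complex, fell by 1.73 (-3.18 to -0.59), a call lost with DESeq2 size factors (-1.61), to 6 counts (0.60 TPM) in technical replicate 2, against 345 counts (13.9 TPM) in technical replicate 1. Cdca8, which encodes its subunit borealin, had 32 counts (3.65 TPM) in technical replicate 2 and 292 counts (18.4 TPM) in technical replicate 1, at 0.93 (0.35 to 1.46) and not called. Among the other kinases, Aurka had 29 counts (2.86 TPM) in technical replicate 2 and 212 counts (7.26 TPM) in technical replicate 1, and Plk1 had 36 counts (2.96 TPM) in technical replicate 2 and 148 counts (3.84 TPM) in technical replicate 1. Both were called higher, Aurka at 1.25 (0.63 to 1.81) and Plk1 at 2.08 (1.51 to 2.61), and neither was called by total counts, where Aurka stood at -0.02 and Plk1 at 0.81.

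Of 4 genes of the spindle checkpoint and of the ubiquitination it restrains, 2 were called higher, 1 lower and 1 neither under TMM. Ube2c (chr2:164769898-164778822, + strand, 6 exons), the ubiquitin-conjugating enzyme of the anaphase-promoting complex, had 440 counts (90.0 TPM) in technical replicate 2 and 504 counts (33.9 TPM) in technical replicate 1. It rose by 3.92 (3.73 to 4.11), and by 2.66 under total counts. Cdc20, which activates the same complex, had 40 counts (4.11 TPM) in technical replicate 2 and 173 counts (6.31 TPM) in technical replicate 1, a rise of 2.00 (1.47 to 2.51) that was 0.74 and not called by total counts. The checkpoint kinase Bub1 fell by 2.41 (-4.30 to -1.05), to 4 counts (0.21 TPM) in technical replicate 2, against 370 counts (7.17 TPM) in technical replicate 1. Its relative Bub1b, which encodes BUBR1, had 24 counts (1.16 TPM) in technical replicate 2 and 813 counts (15.6 TPM) in technical replicate 1, at -0.97 (-1.62 to -0.38) without a call under TMM and lower by total counts.

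All 6 spindle and kinetochore genes had a ratio below 0, and all 6 were lower by total counts. Under TMM 3 of 6 were lower. Over all tested genes 32.6% were lower under TMM and 58.5% by total counts. Kif11 (chr19:37376403-37421859, + strand, 22 exons), the motor that pushes spindle poles apart, fell by 2.02 (-2.71 to -1.40), to 21 counts (0.76 TPM) in technical replicate 2, against 1475 counts (16.7 TPM) in technical replicate 1. Cenpe, a kinetochore motor, fell by 2.04 (-2.92 to -1.29), to 14 counts (0.31 TPM) in technical replicate 2, against 1002 counts (6.87 TPM) in technical replicate 1. The kinetochore protein gene Cenpf fell by 1.38 (-2.10 to -0.74), to 20 counts (0.31 TPM) in technical replicate 2, against 902 counts (4.51 TPM) in technical replicate 1.

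The other 3 of that role were not called under TMM. Tpx2, a spindle assembly factor that activates Aurora A, had 28 counts (1.18 TPM) in technical replicate 2 and 861 counts (13.3 TPM) in technical replicate 1, at -0.83. Prc1, which bundles microtubules of the central spindle, had 36 counts (3.37 TPM) in technical replicate 2 and 861 counts (17.0 TPM) in technical replicate 1, at -0.46. Nusap1, a microtubule-binding protein gene, had 43 counts (2.59 TPM) in technical replicate 2 and 1233 counts (22.8 TPM) in technical replicate 1, at -0.72. The summed level of the 6 was 8.52 TPM in technical replicate 2 and 81.0 TPM in technical replicate 1.

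A pair of widely used proliferation markers were lower under both scalings. Mki67 (chr7:135689784-135716361, - strand, 14 exons), which encodes the Ki-67 protein that coats mitotic chromosomes, fell by 2.03 (-2.28 to -1.79), to 145 counts (2.48 TPM) in technical replicate 2, against 10280 counts (54.3 TPM) in technical replicate 1. Top2a, the topoisomerase that untangles sister chromatids, fell by 1.48 (-1.81 to -1.16), to 83 counts (5.49 TPM) in technical replicate 2, against 4005 counts (55.7 TPM) in technical replicate 1. Birc5, Plk1 and Cdc20, likewise read as signs of proliferation, were called higher under TMM.

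The ratios of the members ran alongside the GC content and length of their transcripts. Spearman's rho of the log2 ratio with GC content was 0.70 across the 39 members and 0.52 across the 12391 tested genes of known GC, and with length it was -0.44 and -0.36; all points share the same pair of libraries. Median GC was 50.7% for replication members and 47.4% for mitosis members, and 43.1% for the spindle and kinetochore genes, whose median length was 4592 bases. In the second lowest of 10 GC bins (41.6% to 44.1%) lay Kif11, Top2a, Cenpf, Nusap1 and Cenpe, with a median ratio of -1.48 beside -1.33 for the 1239 genes of the bin. In the second highest (55.4% to 57.7%) lay Ube2c, Mcm2, Cdc20, Tk1 and Plk1, with a median of 2.00 beside 1.36. Ube2c was placed there by a transcript that had 0 counts in both libraries, and the transcript it was counted on is 51.4% G or C. The part of composition and length in these results was not tested.

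With a trend in GC and length over all tested genes removed, 12 members were higher and 3 lower, beside 23.8% higher and 27.6% lower over the 12391 tested genes of known GC. Of the replication members 8 were higher and 1 lower, and of the mitosis members 4 were higher and 2 lower. None of the 6 spindle and kinetochore genes was called then, and their median was 0.19. The 3 lower ones were Ccnb1 at -2.53, Aurkb at -2.58 and Tk1 at -1.72. Birc5 stood at 4.87 and Ube2c at 2.49, both still higher, while Mki67 stood at -0.28 and Top2a at 0.12 without a call. The calls of Plk1 (0.52), Cdc20 (0.32), Aurka (0.60) and Bub1 (-1.15) were lost as well. The replication and mitosis medians were 0.76 and 0.12. GC and length here are those of the longest coding transcript, and the adjusted ratios rest on it. For Birc5 this is a transcript of 3334 bases and 47.4% GC. Yet 98.2% of its TPM in technical replicate 2 and 91.6% in technical replicate 1 lay on Birc5-201, of 947 bases and 51.3% GC. For Ube2c it is a transcript of 2191 bases and 55.5% GC with 0 counts in both libraries. Ube2c was counted wholly on Ube2c-202, of 967 bases and 51.4% GC. The adjusted ratios of both genes thus use a transcript that held little or none of their TPM.

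**Figure D4:**
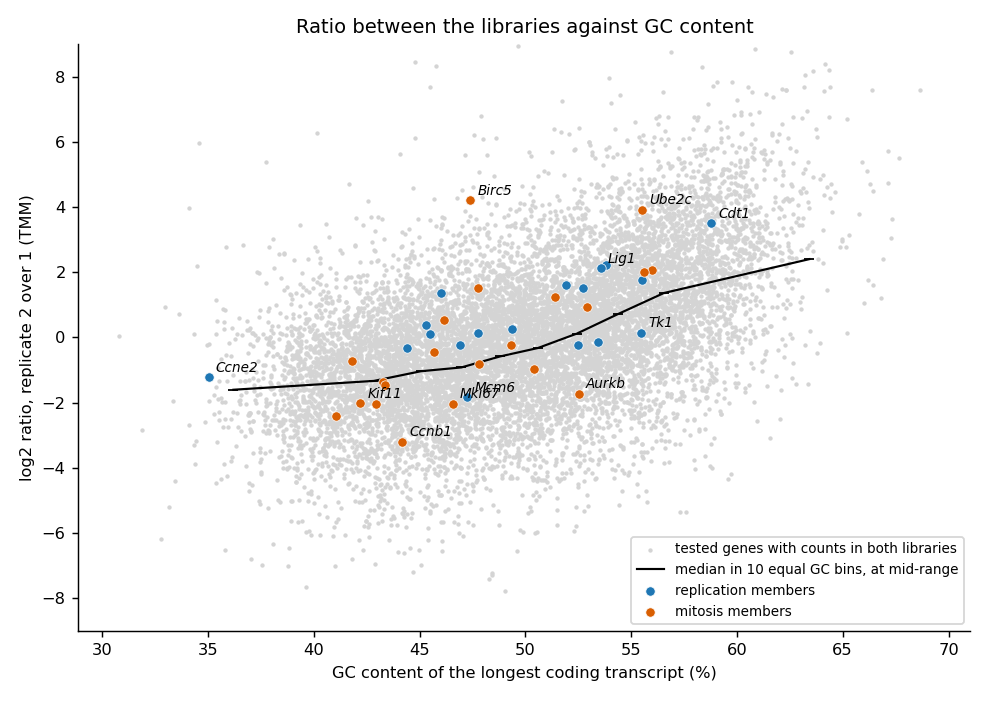
Log2 ratio under TMM, technical replicate 2 over technical replicate 1, against GC content in percent for the tested genes with counts in both libraries (grey; 13 lie outside the drawn range), with the median in 10 GC bins as a line and the replication and mitosis members in colour. Members climb from left to right with the other genes, and Birc5 and Ccnb1, at 4.21 and -3.19, lie far above and far below the line.

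The deposited transcript tables show that some members of both groups were counted on different transcripts. Of 29 members with 2 or more transcripts, the one with the highest share of TPM was the same in both libraries for 20 and differed for 9. It differed for 5 of 13 replication members and 4 of 16 mitosis members, and no such count was taken over all genes. In technical replicate 2 the leading transcript of Mcm3, Mcm7 and Lig1 was annotated as a retained intron. Mcm3-203 held 87.4% of the TPM of Mcm3 in technical replicate 2 and 17.5% in technical replicate 1, Mcm7-202 held 99.5% of that of Mcm7 in technical replicate 2 and 11.6% in technical replicate 1, and Lig1-204 held 81.3% of that of Lig1 in technical replicate 2 and 17.2% in technical replicate 1. These 3 transcripts, of 716, 986 and 946 bases, begin past the midpoint of the gene, nearer its 3′ end.

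The leading transcript of Prc1 in technical replicate 2, Prc1-208 with 92.8%, also begins past the midpoint, and it held 0.96% in technical replicate 1. Such a start was seen for the leading transcript of 4 of the 29 members in technical replicate 2 and of 0 in technical replicate 1. Protein-coding transcripts of Mcm3 summed to 0.57 TPM in technical replicate 2 and 26.4 TPM in technical replicate 1, and those of Mcm7 to 0.08 TPM in technical replicate 2 and 49.5 TPM in technical replicate 1. Those of Lig1 were listed at 0 in technical replicate 2 and at 14.2 TPM in technical replicate 1. The higher TPM of Lig1 in technical replicate 2, and its higher calls by counts, thus lay wholly outside its coding transcripts. Shorter transcripts turn a count into more TPM: the mean transcript length deposited for Mcm3 was 774 bases in technical replicate 2 and 2447 bases in technical replicate 1.

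For most of the 29 members the listed coding share was higher in technical replicate 2, the shallower library. It was higher there for 19, lower for 7 and equal for 3, with medians of 100% in technical replicate 2 and 84.8% in technical replicate 1. Many of these shares rest on few counts in technical replicate 2: 25 for Tyms, 32 for Cdca8, 26 for Tk1 and 4 for Bub1. So few counts can leave a minor transcript at 0. The part of depth was not tested, and no such shares were taken over all genes. For Tyms, protein-coding transcripts held 74.1% in technical replicate 2 and 7.20% in technical replicate 1, where Tyms-205, annotated for nonsense-mediated decay, led with 57.2%. For Cdca8 the share was 100% in technical replicate 2 and 32.6% in technical replicate 1, and for Tk1 it was 85.7% in technical replicate 2 and 48.7% in technical replicate 1. Summed over coding transcripts alone, replication members had 132.9 TPM in technical replicate 2 and 515.4 TPM in technical replicate 1, and mitosis members had 280.1 TPM in technical replicate 2 and 379.2 TPM in technical replicate 1. The quotient was then 0.475 in technical replicate 2 and 1.36 in technical replicate 1.

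**Figure D5:**
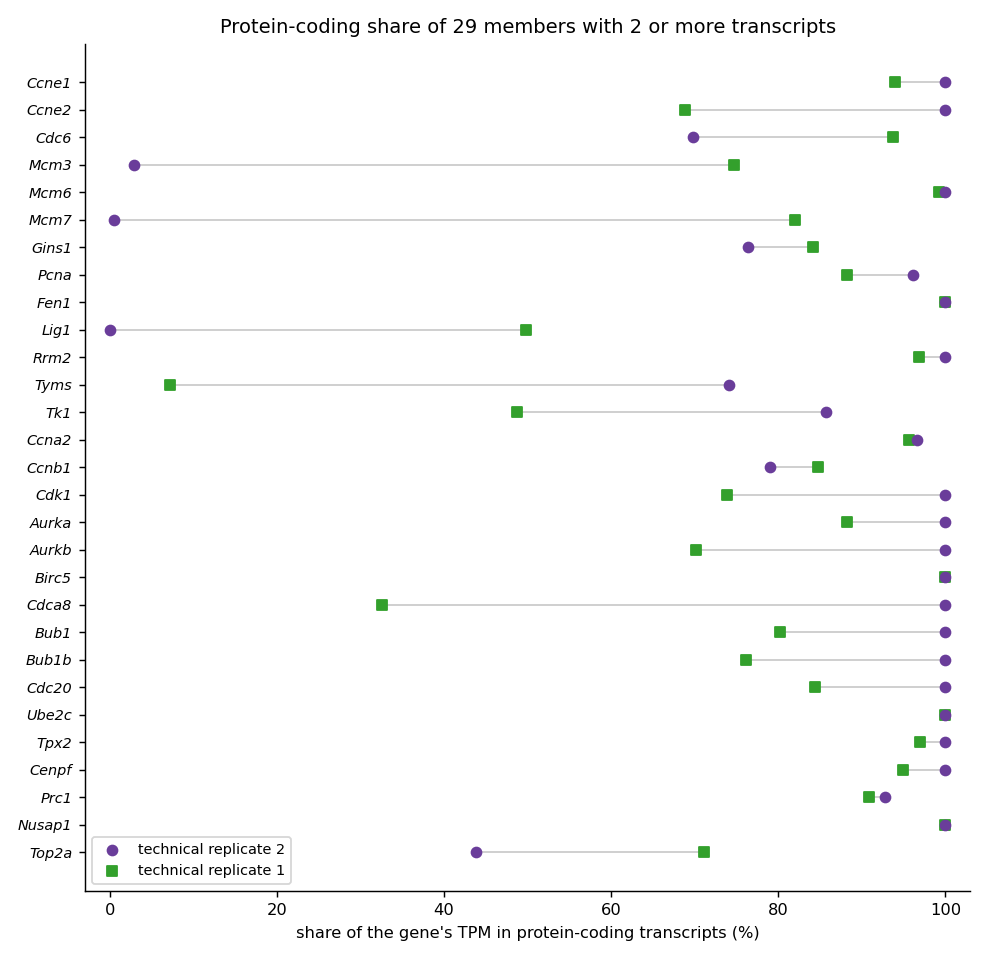
Share of each gene's TPM on protein-coding transcripts, in percent, for the 29 members with 2 or more transcripts, in technical replicate 2 (circles) and technical replicate 1 (squares). For Mcm3, Mcm7 and Lig1 the circles lie at or near 0, with squares at 74.7%, 82.0% and 49.8%, while Tyms and Cdca8 show the opposite order.

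Other genes of the same processes were taken from lists that do not hold the 39. Of 43 other replication genes, all tested, 13 were higher and 8 lower, and the median ratio was 0.45, beside 28.0% higher, 32.6% lower and a median of -0.27 over all tested genes. Pold1, the catalytic subunit of DNA polymerase delta, rose by 4.37 (4.15 to 4.58) with 402 counts (166.1 TPM) in technical replicate 2 and 338 counts (14.7 TPM) in technical replicate 1, and E2f1, a transcription factor that switches on replication genes, rose by 4.31 (3.996 to 4.622) with 185 counts in technical replicate 2 and 162 in technical replicate 1. Pole, the catalytic subunit of polymerase epsilon, had 2 counts in technical replicate 2 and 688 in technical replicate 1 (-4.31, interval -7.36 to -2.45). Prim1, the primase subunit, had 1 count in technical replicate 2 and 787 in technical replicate 1 (-5.50, interval -10.81 to -3.02). Rpa1, which covers single-stranded DNA, had 295 counts (14.5 TPM) in technical replicate 2 and 3653 counts (74.0 TPM) in technical replicate 1 and was not called.

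Of 49 other mitosis genes tested, among 51 listed, 13 were higher and 18 lower, with a median of -0.68, beside the same 28.0%, 32.6% and -0.27 over all tested genes. Pttg1, which encodes securin, rose by 3.37 (3.22 to 3.51) with 592 counts (145.8 TPM) in technical replicate 2 and 996 counts (76.5 TPM) in technical replicate 1, and the checkpoint gene Bub3 by 3.29 (3.16 to 3.41) with 846 counts in technical replicate 2 and 1503 in technical replicate 1. Smc4, a condensin subunit, fell by 2.80 (-3.14 to -2.49), to 82 counts (6.74 TPM) in technical replicate 2, against 9934 counts (151.3 TPM) in technical replicate 1. Ect2, needed for cytokinesis, had 1 count in technical replicate 2 and 516 in technical replicate 1 (-4.89, interval -10.20 to -2.41), and Hmmr, a spindle-associated protein gene, had 2 counts in technical replicate 2 and 566 in technical replicate 1 (-4.03, interval -7.08 to -2.17). Of the 51 listed genes, 8 had 0 counts in technical replicate 2, and a count of 0 was set to 3 for the ratio. Such genes get a milder ratio, so Ect2 and Hmmr are lowest among called genes with counts in both libraries. Securin and cyclin B1, both substrates of the anaphase-promoting complex, were thus called in opposite directions under TMM.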

How the data were processed

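The deposited files are 1 gene table and 1 transcript table for each of 2 libraries. Per the text deposited with the samples, they use mouse genome mm10 and GENCODE M4; the aligner, the quantifier and their settings are not given in the sources used here, nor is whether counting used strand. Per the file headers, the deposited tables give expected counts, TPM and, for transcripts, a percent, the part of its gene's TPM that a transcript takes; transcript lengths and the posterior standard deviation of a count are other deposited measures. Whether the reads of both libraries were processed alike is not given there either.

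Gene identifiers were matched to symbols for 42462 of 43346 Ensembl rows. The 26345 other rows held 0.00021% of the counts in technical replicate 2 and 1.09e-05% in technical replicate 1 and stayed out of library sizes. Expected counts were rounded, scaled by TMM (edgeR 4.0.16, R 4.3.3) and compared as a log2 ratio, technical replicate 2 over technical replicate 1, with 95% Clopper-Pearson bounds given the summed count of both libraries (scipy 1.17.1). For the ratio, though not for its interval, a count of 0 was set to 3, which makes such a ratio milder. The call needs the whole interval beyond 1.5-fold. Genes needed 50 counts in all and a mean of 1 TPM. GC content, length, coordinates and exons came from GENCODE M21 on GRCm38, the assembly of mm10, for the longest coding transcript present in the deposited tables, and the trend was a cubic in GC and log2 length. Calls were first run on simulated Poisson counts, the model that the interval assumes, without added spread or a trend in GC or length. Such a run checks the calculation only and not how well the calls suit these libraries. Alternatives included DESeq2 1.42.0 size factors, total counts, a fold of 2, a 99% interval, other filters and pseudocounts of 1 and 0.1. Python 3.11.15, numpy 2.4.6, pandas 2.3.3 and matplotlib 3.10.9 were used.

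The 39 members, the roles and the lists were chosen with earlier results of these data known. Values are given for members with a mean TPM of at least 5 or a call. From each list of other cell cycle genes, those named are the 2 with the highest mean TPM. Among called genes of each list, the 2 highest and 2 lowest ratios are named too. S1pr2, C1qa and Gp1ba were named after their values were seen. Molecular identifiers are not mentioned in the sources used here, and reads without them are not independent molecules, so intervals cover counting error alone.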

Additional observations from a re-analysis of the deposited data

How the results depend on the processing

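No paired analysis was possible because each group is a single library. DESeq2 size factors changed 1 of 39 member calls (Aurkb) and total counts 19, including reversed signs for Mcm4 (-1.17), Pcna (-0.87) and Aurka (-0.02). Removal of the GC and length trend changed 15, including reversed signs for Rrm1 (0.89), Tk1 (-1.72), Cenpf (0.72) and Top2a (0.12). In both of these settings the sign also reversed for members without a call before or after, which are not counted here. An example is Cdca8, at -0.34 by total counts and -0.19 with the trend removed. Under total counts 5 members were higher and 20 lower (replication 3 and 7, mitosis 2 and 13), with medians of -1.06 for replication and -1.99 for mitosis. Trend removal left 3 members lower (mitosis 2), with medians of 0.76 and 0.12. A mean TPM of at least 5 left 5 mitosis members lower, by leaving out low ones. As a TPM ratio the replication and mitosis medians were -1.61 and -2.31 with a pseudocount of 1, and -1.75 and -3.09 with 0.1. The difference of medians, replication minus mitosis, was 0.92. It cannot move under DESeq2 size factors, total counts or no filter, which shift the ratios of all members alike. In the other alternatives run for it, the difference lay between 0.64 and 1.34. The quotient of replication over mitosis moved with the choice of members. With Ccna2 among the replication members it was 0.76 in technical replicate 2 and 1.59 in technical replicate 1 by TPM, and 1.22 in technical replicate 2 and 0.929 in technical replicate 1 by counts. With Ccna2, Mki67 and Top2a left out it was 0.752 in technical replicate 2 and 2.08 in technical replicate 1 by TPM, and 1.31 in technical replicate 2 and 1.95 in technical replicate 1 by counts. Without Pcna and Birc5 it was 1.09 in technical replicate 2 and 1.06 in technical replicate 1 by TPM, and 1.38 in technical replicate 2 and 0.671 in technical replicate 1 by counts. With protein-coding transcripts alone it was 0.475 in technical replicate 2 and 1.36 in technical replicate 1 by TPM, and 0.88 in technical replicate 2 and 0.778 in technical replicate 1 by counts. Without Birc5 and Ube2c, added after seeing the data, it was 3.53 in technical replicate 2 and 1.67 in technical replicate 1 by TPM, and 2.54 in technical replicate 2 and 0.852 in technical replicate 1 by counts. Depth limits members such as Ccnb1 and Bub1, with 4 counts each in technical replicate 2.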

Other observations

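Of 7 cyclins and kinases of G1, 2 were higher and 2 lower in technical replicate 2, and the median log2 ratio under TMM was -0.26, near the 28.0% higher, 32.6% lower and median of -0.27 over all tested genes. Ccnd3, cyclin D3, rose by 3.27 (95% interval 3.15 to 3.38) with 966 counts (84.5 TPM) in technical replicate 2 and 1741 counts (94.3 TPM) in technical replicate 1, whereas its relatives were lower, Ccnd2 at -2.72 with 54 counts in technical replicate 2 and 6155 in technical replicate 1 and Ccnd1 at -2.21 with 34 counts in technical replicate 2 and 2733 in technical replicate 1. Cdk2, the partner of cyclin E, rose by 1.25 (1.03 to 1.47) with 193 counts in technical replicate 2 and 1403 in technical replicate 1, and Cdk4, the partner of the D cyclins, had 70 counts in technical replicate 2 and 1776 in technical replicate 1 and was not called.

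Of 11 inhibitors of the cell cycle and genes of quiescence, 3 were higher and 5 lower, with a median of -1.02, beside the same shares and median over all tested genes. Btg1 and Btg2, which restrain proliferation, had 2428 and 801 counts in technical replicate 2 and 22615 and 6021 counts in technical replicate 1, and both were called higher, at 0.90 and 1.21. The CDK inhibitor Cdkn2d rose by 1.12 with 46 counts in technical replicate 2 and 366 in technical replicate 1, while Cdkn2c, another inhibitor of its family, had 1 count in technical replicate 2 and 283 in technical replicate 1 (-4.03, interval -9.34 to -1.54). Rbl1, a relative of the retinoblastoma protein gene, fell by 2.73, to 17 counts in technical replicate 2, against 1959 in technical replicate 1. By total counts 0 of the 11 were higher and 7 lower, beside 14.6% and 58.5% over all tested genes, so that the 3 higher calls held under TMM and not by total counts.

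The remaining marker lists had these summed levels. In technical replicate 2, B cell markers summed to 1248 TPM, T cell markers to 87.7, plasma cell markers to 392, red pulp macrophage markers to 783 and megakaryocyte markers to 160 TPM. In technical replicate 1, B cell markers summed to 3064 TPM, T cell markers to 513, plasma cell markers to 1662, red pulp macrophage markers to 1203 and megakaryocyte markers to 35.0 TPM. By TPM 2 of 6 B cell, 0 of 6 T cell, 1 of 5 plasma cell, 1 of 6 red pulp macrophage and 3 of 4 megakaryocyte markers were higher in technical replicate 2, among them the macrophage gene C1qa with 569 TPM in technical replicate 2 and 90.1 TPM in technical replicate 1. Of the 4 megakaryocyte markers, Gp1ba had 0 counts in technical replicate 2 and 131 in technical replicate 1. Of the 39 members, 13 overlap a gene on the opposite strand and 5 a gene on the same strand in the annotation, such as Mcm7 with Cops6 (28.8 TPM in technical replicate 2 and 67.0 TPM in technical replicate 1) and Ccna2 with Exosc9 (23.99 TPM in technical replicate 2 and 45.41 TPM in technical replicate 1); without a stated strand their reads may be shared. Processed copies took few counts: Pcna-ps2 had 0 in technical replicate 2 and 18.2 in technical replicate 1, and Ccnb2-ps had 3 in technical replicate 2 and 12 in technical replicate 1.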
